A study of Mus musculus with 6 samples.

Results

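Glycolysis turns glucose into pyruvate in a chain of enzymes, and several of its steps are carried out by isozymes, which are enzymes of the same reaction encoded by different genes. The 10 genes described here encode isozymes of 4 steps. Hk1 and Hk2 encode hexokinases, which trap glucose in the cell as glucose 6-phosphate. Pfkl, Pfkm and Pfkp encode the liver, muscle and platelet forms of phosphofructokinase, which commits the sugar to glycolysis. Aldoa and Aldoc encode aldolases A and C, which split the 6-carbon sugar. Eno1, Eno2 and Eno3 encode the alpha, gamma and beta enolases, which make phosphoenolpyruvate. The isozymes of a family differ in the tissues that use them and in their regulation. Hk1, Aldoa and Eno1 are the broadly expressed forms, and Hk2 is the insulin-responsive hexokinase of muscle and fat. Aldoc and Eno2 are typical of the nervous system, and Pfkm and Eno3 of muscle. Some genes of glycolysis are among those that hypoxia-inducible factor is known to activate. The genes were taken by symbol and are 10 of the 27179 genes counted. The question was which isozyme made up most of the message of each family, and whether that split differed among the 3 cell lines.

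The mRNA of 3 lines of mouse embryonic fibroblasts (MEFs) was sequenced, with 2 libraries from independent RNA preparations for each line. The CPN-/- line carried null alleles of Cry1 and Cry2, of Per1 and Per2, and of Nr1d1 and Nr1d2, so that the proteins that repress the circadian clock were removed, and every line shared this background. The CPN-/- CRY1 and CPN-/- CRY2 lines expressed mouse CRY1 or CRY2 from a retrovirus. Each was a single blasticidin-resistant colony of the CPN-/- cells, so that an effect of a CRY protein and a difference between colonies cannot be told apart. No line with an empty virus was among the 3. Against CPN-/-, effects of the virus and of the blasticidin selection cannot be told apart from that of a CRY protein either. All cells grew in DMEM with serum and had no other treatment. CRY1 and CRY2 repress the CLOCK-BMAL1 transcription factor, which binds E-box sequences. Nothing states that the preparations came from separate cultures, and the p-values then measure the spread between these libraries only.

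The libraries held between 25957409 and 36106949 counts. All 10 genes passed the filter on low counts (14069 genes did), and 9 of them had at least 297 counts in every library, whereas Aldoc had between 25 and 47. The library pair of CPN-/- differed more than the others. The SD over genes of the log2 difference within the pair was 0.44 in CPN-/-, 0.23 in CPN-/- CRY1 and 0.24 in CPN-/- CRY2, and in CPN-/- this difference followed transcript length (Spearman's rho = 0.70 across 12478 genes, which are not independent). CPM is the count of a gene scaled to library size in the usual way, here with edgeR's TMM factors. Cry1 message was 125 and 115 CPM in CPN-/-, where its null allele still gave counts, and 165 and 190 CPM in CPN-/- CRY1, a 1.48-fold higher level. Cry2 message was 136 and 129 CPM in CPN-/- and 349 and 351 CPM in CPN-/- CRY2, a 2.64-fold higher level. Of 12 fibroblast markers, Thy1, Lum and Fap were under 1 CPM in every line and Dcn in CPN-/- and CPN-/- CRY1, while the 12 summed to between 11160 and 17836 CPM. Of 10 muscle markers, all but Des and Acta1 had a mean under 1 CPM in every line. Of 10 neuron and glia markers, all but Syt1 and Map2 did. Des and Syt1 were not under 1 CPM in CPN-/- and CPN-/- CRY2. Acta1 was 9.68 and 9.37 CPM in CPN-/- CRY1 against 0.723 and 0.844 CPM in CPN-/-. Map2 was 151 and 143 CPM in CPN-/- CRY2 against 82.1 and 60.7 CPM in CPN-/-. The part of these in the results on the isozymes typical of muscle or the nervous system was not tested.

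The promoters of the members are shown because CRY proteins act on CLOCK-BMAL1 at the E-box CACGTG and because the core of the hypoxia response element, ACGTG or GCGTG, is the site of hypoxia-inducible factor. RefSeq windows (GRCm38.p6) from 250 bases before to 50 bases after each start matched all 10 genes, with 19 windows. CACGTG was found in 1 of the 19 windows (5.26%), against 7.15% of all 32851 windows, and that window belonged to Pfkm. ACGTG was found in 7 of them (36.8%, against 19.6% of all windows), and GCGTG in 11 (57.9%, against 32.4%). Both strands were searched, so the reverse strand reads CACGT and CACGC, and CACGTG also counts as ACGTG. The windows of 1 gene overlap or share sequence, so they are not independent, and a match is a description of letters and not of a bound site. The stretches upstream of a start are given for the 4 genes lower in both CRY lines, for the E-box of Pfkm, and for Pfkp, whose ratio to its family was higher in both CRY lines. Sequences run 5′ to 3′ on the strand of the gene, with the motif in capitals. A gene can have several starts, and each distance is from the start of the window that held the stretch. The Eno1 stretch at 230 bases is counted from another start than the other Eno1 stretches.
Hk2, chr6:82774490-82774518, minus strand, first capital 52 bases before the start: aatgagcacatcCACGTcactgtccgggg
Hk2, chr6:82774664-82774692, minus strand, first capital 226 bases before the start: agccacggaacaCACGTcccaactctggc
Pfkl, chr10:78009890-78009918, minus strand, first capital 99 bases before the start: atttgtagactgGCGTGcgctccgccttt
Aldoa, chr7:126799364-126799392, minus strand, first capital 126 bases before the start: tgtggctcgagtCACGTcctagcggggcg
Eno1, chr4:150237123-150237151, plus strand, first capital 62 bases before the start: ttggagtgatggCACGCtgagccaatggg
Eno1, chr4:150237099-150237127, plus strand, first capital 86 bases before the start: ggccgcctcggtCACGCtcttctattgga
Eno1, chr4:150236466-150236494, plus strand, first capital 230 bases before the start: actgccttattaGCGTGagctggacagta
Pfkm, chr15:98092441-98092470, plus strand, first capital 136 bases before the start: aattaagtatgcCACGTGaagtaagtaatt
Pfkp, chr13:6648778-6648806, minus strand, first capital 23 bases before the start: cgctcgggcgggGCGTGggcggctcctgc
Pfkp, chr13:6648823-6648851, minus strand, first capital 68 bases before the start: ggccccgcccttGCGTGagtcccgcccat
Pfkp, chr13:6648891-6648919, minus strand, first capital 136 bases before the start: ccctaacagaacGCGTGtccatactatcc
The only CACGTG thus stood before Pfkm, while all 3 of the printed Eno1 stretches and the one of Pfkl held GCGTG and those of Hk2 and Aldoa held ACGTG. None of the 3 motifs was found in the window of Eno2. Over whole windows, ACGTG was found in 5 of the 10 members and GCGTG in 7, against 21.8% and 35.2% of all genes. The 10 members had 19 windows, while all 27025 genes had 32851. A member thus had more windows per gene in which a motif could be found. Hk1 and Aldoc held both and Eno3 held GCGTG, and none of them was called lower in a CRY line by the edgeR test below. The motifs were thus not limited to the lower genes.

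Levels are given as CPM per kb of the longest coding transcript (GENCODE vM21), so that genes of different length can be compared. The share of an isozyme is its percentage of the summed CPM per kb of the listed members of its family. Fewer cells that use a gene and less message per cell cannot be told apart in such samples. With these lengths Hk1, Pfkl, Aldoa and Eno1 led their families in all 6 libraries, and with the other lengths tried the leading gene changed in phosphofructokinase alone. The leading share ranged from 88.8% to 92.8% for Hk1, from 40.6% to 70.6% for Pfkl and from 94.0% to 96.8% for Eno1, and Aldoc never exceeded 0.0613% of the aldolase sum. Phosphofructokinase was therefore the family with the most even split, and also the one whose split differed most between lines.

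**Figure D1:**
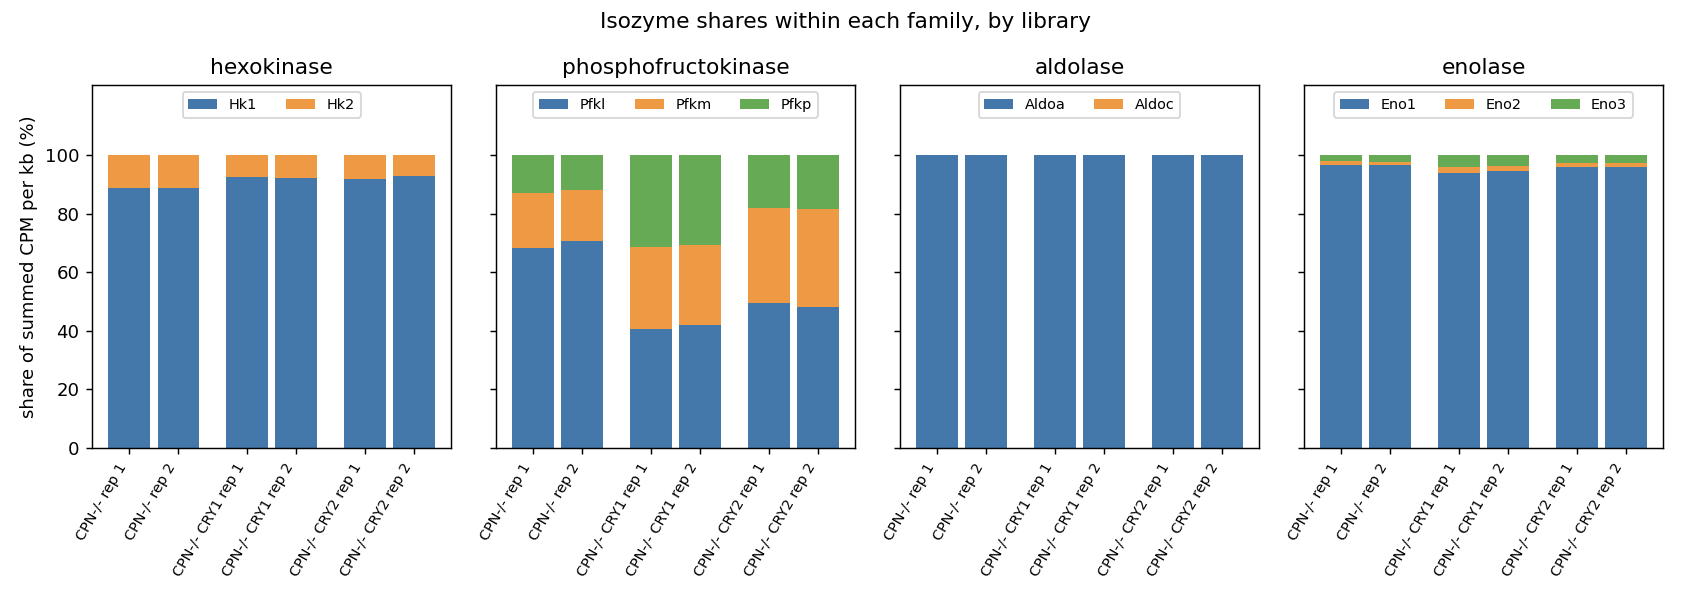
Share of each isozyme (% of the summed CPM per kb of its family, y axis) in each of the 6 libraries (1 bar each, x axis), in 4 panels for the families. Pfkl falls from 68.3% and 70.6% of the phosphofructokinase bars in CPN-/- to 40.6% and 42.1% in CPN-/- CRY1, or 49.3% and 48.1% in CPN-/- CRY2, while the aldolase bars are filled by Aldoa.

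A gene was called higher or lower where edgeR's quasi-likelihood test, two-sided and fitted to the 6 libraries together, gave a Benjamini-Hochberg adjusted p under 0.05 over the 14069 tested genes. Against CPN-/-, 5 of the 10 members were called in CPN-/- CRY1 (Hk2, Pfkl, Pfkm, Aldoa and Eno1) and 5 in CPN-/- CRY2 (Hk2, Pfkl, Aldoa, Eno1 and Eno2), all lower. Of all tested genes, 24.3% were called in the former comparison, 13.1% as lower and 11.2% as higher, and 6.66% in the latter, 4.08% as lower and 2.58% as higher. The median log2 fold change of the members was -0.55 and -0.59, against -0.01 in both cases for all tested genes. These comparisons share the CPN-/- libraries. In the direct comparison of CPN-/- CRY1 with CPN-/- CRY2, which does not use them except for the estimate of the spread, 4 members were called, Pfkl and Pfkm lower and Pfkp and Eno2 higher in CPN-/- CRY1, where 16.3% of all tested genes were called, 8.57% as lower and 7.72% as higher. The counts rose without either CPN-/- library, to 8 and 8 without replicate 1 and to 7 and 7 without replicate 2, and to 5 in the direct comparison either way. They dropped when a CRY library was left out. Without a CPN-/- CRY1 library, 2 members were called in CPN-/- CRY1, 3 in CPN-/- CRY2 and 0 in the direct comparison. Without a CPN-/- CRY2 library, these counts were 4, 1 and 0. At an unadjusted p under 0.05, the counts of 0 in edgeR were 4 or 5, and DESeq2 with all libraries called 5 in the direct comparison.

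**Figure D2:**
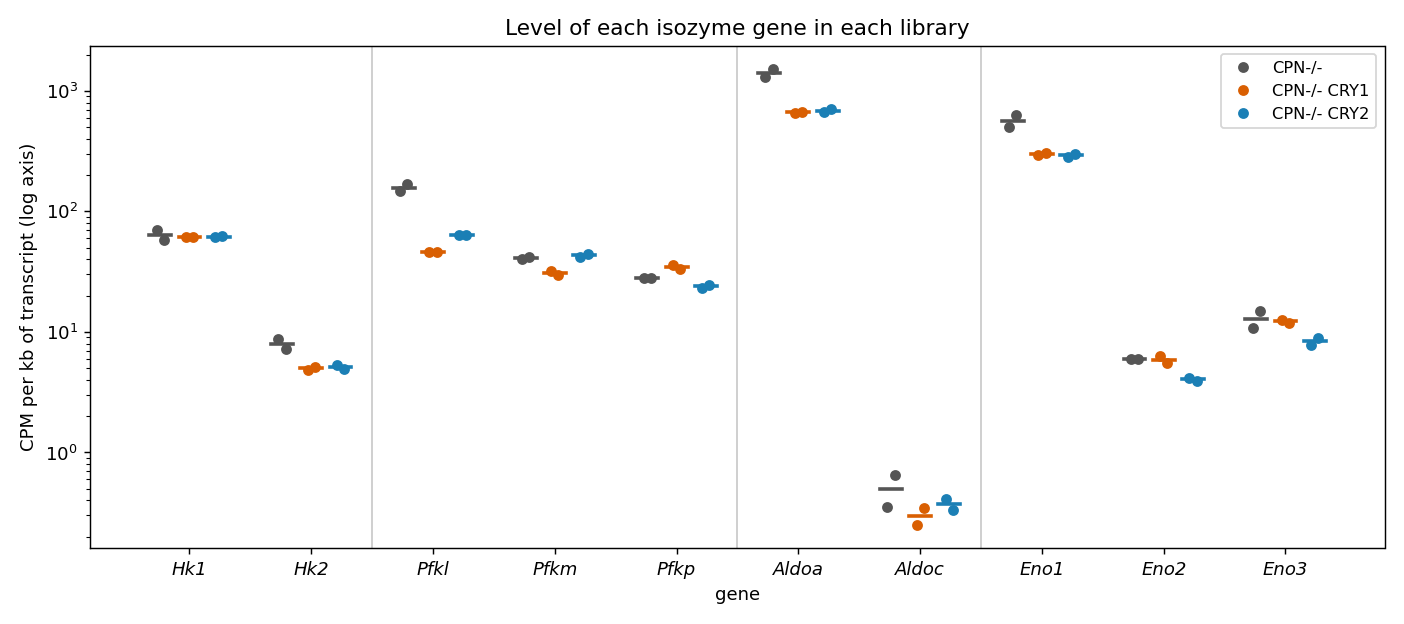
Level of each isozyme gene in CPM per kb of transcript (log y axis) in the 2 libraries of each line (points) with the line mean (bar), by gene (x axis). Hk1 lies between 57.5 and 69.9 in every library, and Pfkl separates the lines, at 148 and 168 in CPN-/-, 46.4 and 45.8 in CPN-/- CRY1, with 63.3 and 63.9 in CPN-/- CRY2.

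The hexokinases showed a lower Hk2 beside an Hk1 whose level was not called. Hk1 was 69.9 and 57.5 CPM per kb in the CPN-/- libraries, 61.1 and 60.8 in CPN-/- CRY1, then 60.8 and 62.8 in CPN-/- CRY2. The CPN-/- libraries thus enclosed the values of both CRY lines, with log2 fold changes of -0.06 ± 0.12 (SE) for CPN-/- CRY1 and -0.04 ± 0.12 for CPN-/- CRY2. Without CPN-/- replicate 2 the value of Hk1 for CPN-/- CRY1 was -0.19 and was called (adjusted p = 0.019, edgeR). Hk2 (chr6:82725025-82774454, minus strand, GRCm38) was 8.81 and 7.20 CPM per kb in CPN-/-, 4.87 and 5.15 in CPN-/- CRY1, with 5.32 and 4.89 in CPN-/- CRY2. Both CPN-/- libraries lay above all 4 CRY libraries. The level was 1.60-fold lower in CPN-/- CRY1 (log2 fold change -0.68 ± 0.13, adjusted p = 0.012, edgeR) and 1.57-fold lower in CPN-/- CRY2 (-0.65 ± 0.13, adjusted p = 0.030). The CPN-/- CRY2 call was lost without any 1 of the CRY libraries (adjusted p from 0.10 to 0.28) and with only the 4 libraries of the comparison (0.11), and the CPN-/- CRY1 call without either CPN-/- CRY1 library (0.12 and 0.098).

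Both hexokinase genes were higher in replicate 1 of CPN-/- than in replicate 2, and their ratio differed less. The Hk1 to Hk2 ratio was 7.94 and 7.99 in CPN-/-, 12.5 and 11.8 in CPN-/- CRY1, then 11.4 and 12.8 in CPN-/- CRY2. The share of Hk2 was accordingly 11.2% and 11.1% in CPN-/-, 7.38% and 7.81% in CPN-/- CRY1, with 8.04% and 7.22% in CPN-/- CRY2. To test shares, the ratio of each isozyme to the rest of its family was fitted in the same table of genes, with the length-scaled counts of the other members as the offset, and the SE of such a ratio leaves out the counting error of the reference. The Hk2 ratio was 1.53-fold lower in CPN-/- CRY1 (log2 -0.61 ± 0.10, adjusted p = 0.0082, edgeR) and 1.52-fold lower in CPN-/- CRY2 (-0.60 ± 0.10, adjusted p = 0.019). Leaving out a library of the CRY line in question ended each call (adjusted p from 0.083 to 0.24). The CPN-/- CRY2 call was also lost without either CPN-/- CRY1 library and with only the 4 libraries of the comparison (adjusted p = 0.078 in each case). The Hk1 ratio is the same measurement with its sign turned. Between the CRY lines the Hk2 ratio differed by -0.01 ± 0.11 on the log2 scale. The summed hexokinase counts were not called in any comparison, with log2 values of -0.14, -0.12 and -0.02. Without CPN-/- replicate 2 the sum was called lower in both CRY lines (-0.26, adjusted p = 0.0015, and -0.24, adjusted p = 0.0070, edgeR), and in CPN-/- CRY1 also with the length trend removed (-0.19, adjusted p = 0.047). The further hexokinase genes Hk3 and Hkdc1 had at most 4 counts in a library.

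Phosphofructokinase carried the largest redistribution. Pfkl (chr10:77986947-78009807, minus strand) was 148 and 168 CPM per kb in CPN-/-, 46.4 and 45.8 in CPN-/- CRY1, then 63.3 and 63.9 in CPN-/- CRY2. The 3 lines did not overlap. How many of all tested genes have libraries that separate by line was not counted, for this or the other members. Its level was 3.42-fold below CPN-/- in CPN-/- CRY1 (log2 -1.78 ± 0.11, adjusted p = 2.3e-04, edgeR) and 2.48-fold lower in CPN-/- CRY2 (-1.31 ± 0.10, adjusted p = 9.8e-04). Between the CRY lines it was 1.38-fold lower in CPN-/- CRY1 (-0.46 ± 0.10, adjusted p = 0.025). The calls against CPN-/- held in all 15 alternative fits of each comparison, and the direct call held in all but those that left out a CRY library (adjusted p from 0.19 to 0.23).

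Pfkm (chr15:98092589-98132447, plus strand) was 40.6 and 41.9 CPM per kb in CPN-/-, 32.1 and 29.5 in CPN-/- CRY1, with 41.8 and 44.5 in CPN-/- CRY2. The CPN-/- CRY1 libraries were below the other 4. The level was 1.34-fold lower in CPN-/- CRY1 than in CPN-/- (log2 -0.42 ± 0.10, adjusted p = 0.022, edgeR) and 1.40-fold below CPN-/- CRY2 (-0.49 ± 0.10, adjusted p = 0.018), whereas CPN-/- CRY2 against CPN-/- gave 0.07 ± 0.10. Pfkm lies on chromosome 15, where the 530 tested genes had a median log2 fold change of -0.36 in CPN-/- CRY1 against CPN-/-, of 0.05 in CPN-/- CRY2 against CPN-/- and of -0.43 in the direct comparison, and where 45.8% of the genes were called in CPN-/- CRY1. For the chromosomes of the other members, the median in CPN-/- CRY1 against CPN-/- ranged from -0.13 to 0.02. The part of the chromosome in the difference of Pfkm was not tested. On the annotation, Pfkm also shares 341 exon bases with Gm26513 on the same strand, and the part of this overlap in its counts was not tested. The call against CPN-/- was lost with only the 4 libraries of the comparison (adjusted p = 0.075) and without any 1 of the CRY libraries (0.078 to 0.23), and the direct call in the latter case (0.12 to 0.21).

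Pfkp was higher in CPN-/- CRY1 than in CPN-/- CRY2. The level of Pfkp (chr13:6579874-6649060, minus strand) was 27.9 and 28.1 CPM per kb in CPN-/-, 35.8 and 33.4 in CPN-/- CRY1, then 23.3 and 24.5 in CPN-/- CRY2. The libraries of CPN-/- thus lay between those of the CRY lines. Neither difference from CPN-/- passed the test (log2 0.31 ± 0.09, adjusted p = 0.052, for CPN-/- CRY1 and -0.23 ± 0.09, adjusted p = 0.19, for CPN-/- CRY2, edgeR), although the former passed in 7 of 15 alternative fits. Between the CRY lines Pfkp was 1.45-fold higher in CPN-/- CRY1 (0.54 ± 0.09, adjusted p = 0.011), a call that was lost without any 1 of the CRY libraries (0.096 to 0.15). On the annotation, 18% of the Pfkp transcript overlaps exons of Pitrm1 on the opposite strand, and the strand setting of the counting was not given. Pitrm1 gave log2 values of 0.04, -0.24 and 0.27 in the same 3 comparisons and was not called.

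As shares of the family, Pfkl made up 68.3% and 70.6% in CPN-/-, 40.6% and 42.1% in CPN-/- CRY1, with 49.3% and 48.1% in CPN-/- CRY2. Pfkm made up 18.8% and 17.6%, 28.1% and 27.1%, and 32.6% and 33.5% in the same order, and Pfkp 12.9% and 11.8%, 31.3% and 30.7%, and 18.1% and 18.4%. No share overlapped between lines, but the shares of a family are tied to each other, so these are not separate results. With the longest coding transcript, Pfkp gained 18.7 percentage points and Pfkm 9.43 in CPN-/- CRY1, while Pfkm gained 14.8 points and Pfkp 5.93 in CPN-/- CRY2. Which of them gained more depended on the length used. With the union of annotated exons, Pfkm went from 26.9% in CPN-/- to 42.1% in CPN-/- CRY1 and Pfkp from 6.55% to 17.0%. With the median coding transcript, Pfkm went from 11.01% in CPN-/- to 20.7% in CPN-/- CRY2 and Pfkp from 18.2% to 27.9%, which are gains of about the same size. Shares and levels differed, since the mean level of Pfkl was lower by 112 CPM per kb in CPN-/- CRY1, 96.8% of the difference of the family, while that of Pfkm was lower by 10.4 and that of Pfkp higher by 6.65. In CPN-/- CRY2, Pfkl made up 97.7% of the difference of the family.

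All 6 phosphofructokinase ratios against CPN-/- passed the test. The ratio of Pfkp to the rest of the family was 3.19-fold higher in CPN-/- CRY1 (log2 1.68 ± 0.10, adjusted p = 2.1e-04, edgeR) and 1.59-fold higher in CPN-/- CRY2 (0.67 ± 0.10, adjusted p = 0.0094). The latter call was lost with only the 4 libraries of the comparison (adjusted p = 0.051) and without any 1 of the CRY libraries (0.052 to 0.14). The ratio of Pfkm was 1.72-fold higher (0.78 ± 0.10, adjusted p = 0.0026) and 2.22-fold higher (1.15 ± 0.10, adjusted p = 0.0012). That of Pfkl was 3.23-fold lower (-1.69 ± 0.11, adjusted p = 2.7e-04) and 2.40-fold lower (-1.26 ± 0.11, adjusted p = 0.0012). Between the CRY lines, the Pfkp ratio was 2.01-fold higher in CPN-/- CRY1 (1.01 ± 0.10, adjusted p = 0.0012), and this was the direct ratio call that held in all 17 alternative fits. The Pfkl and Pfkm ratios were lower in CPN-/- CRY1 (-0.43 ± 0.10, adjusted p = 0.034, and -0.37 ± 0.10, adjusted p = 0.041). With exon-union lengths these became -0.21 and -0.25 and were not called (adjusted p = 0.24 and 0.13), nor were they without any 1 of the CRY libraries (0.20 to 0.32).

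Which of Pfkm and Pfkp came after Pfkl depended on the line and on the length used. With the longest coding transcript, the level of Pfkm was 1.46 and 1.49 times that of Pfkp in CPN-/-, 0.897 and 0.882 times in CPN-/- CRY1, but 1.80 and 1.82 times in CPN-/- CRY2, so that the order turned in CPN-/- CRY1. With the union of annotated exons, Pfkm led Pfkp in every line (42.1% against 17.0% in CPN-/- CRY1) and also led Pfkl in CPN-/- CRY1 (42.1% against 40.9%) and CPN-/- CRY2 (46.4% against 44.4%). With the median coding transcript, Pfkp led Pfkm in every line (18.2% against 11.01% in CPN-/-), and in CPN-/- CRY1 it led Pfkl as well (43.8% against 40.3%). The same length of a gene was used for all libraries. The computed change of the Pfkm to Pfkp ratio between lines therefore does not depend on it, whereas the order within a line does. Whether the lines differ in the transcripts they use was not tested.

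**Figure D3:**
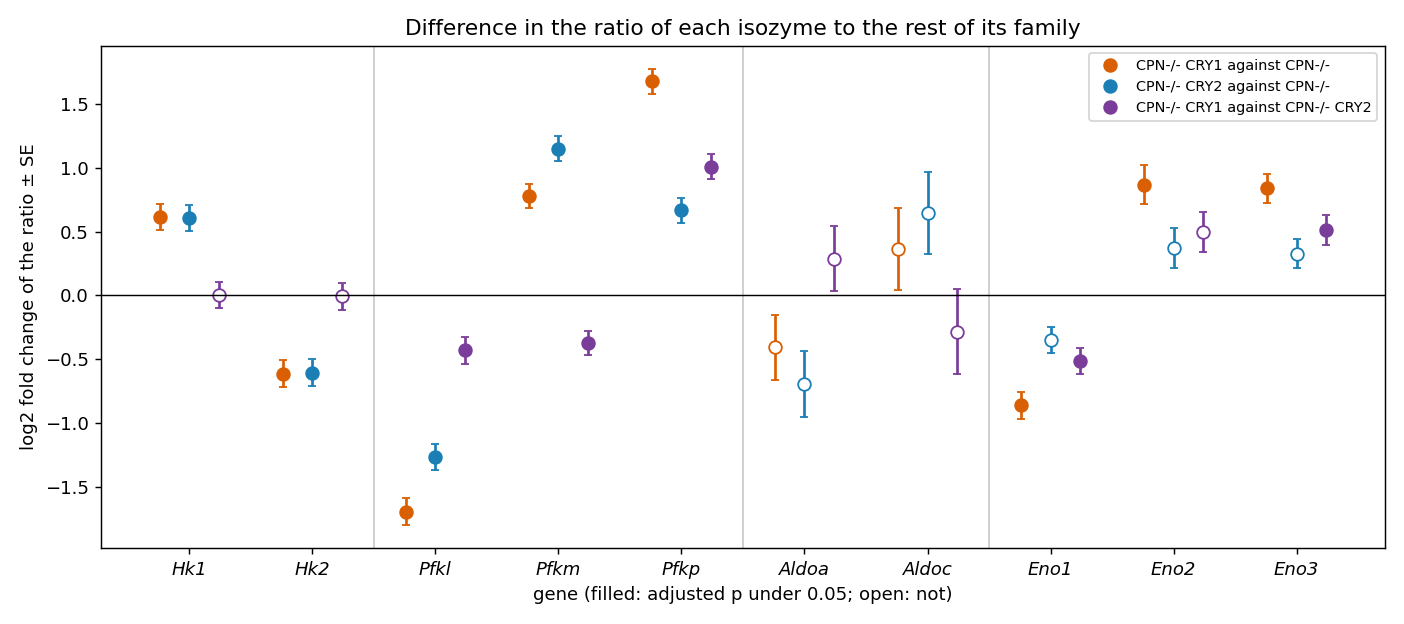
Log2 fold change of the ratio of each isozyme to the rest of its family (y axis, ± SE) by gene (x axis) for the 3 comparisons, filled where the adjusted p was under 0.05. Pfkp reaches 1.68 and Pfkl -1.69 in CPN-/- CRY1 against CPN-/-, and the hexokinase ratios are at 0.00 and -0.01 in the direct comparison.

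Aldolase message was almost entirely Aldoa, and its level dropped without a change in the split that could be detected. Aldoa (chr7:126795234-126800994, minus strand) was 1294 and 1526 CPM per kb in CPN-/-, 658 and 671 in CPN-/- CRY1, then 667 and 702 in CPN-/- CRY2. Both CPN-/- libraries were above all others, and the CRY lines overlapped. It was the most abundant of the 10 genes per length in every library. Its level was 2.12-fold lower in CPN-/- CRY1 (log2 -1.09 ± 0.12, adjusted p = 0.0017, edgeR) and 2.06-fold lower in CPN-/- CRY2 (-1.04 ± 0.12, adjusted p = 0.0038), and the CRY lines differed by -0.04 ± 0.12. Aldoa has a short transcript of 1549 bases, and the fitted trend of each library with length differed at this length by -0.24 and -0.21 in the same comparisons. With the trend removed both calls held, at log2 -0.84 and -0.82. The CPN-/- CRY2 call was lost when a CPN-/- CRY2 library was left out (adjusted p = 0.075 and 0.063).

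Aldoc had 31 and 47 counts in CPN-/-, 25 and 30 in CPN-/- CRY1, with 31 and 25 in CPN-/- CRY2. In CPM per kb these were 0.350 and 0.647, 0.248 and 0.349, and 0.409 and 0.332, so that CPN-/- lay just above CPN-/- CRY1 and overlapped CPN-/- CRY2. None of the differences passed the test with all libraries. The level of Aldoc turned on the CPN-/- libraries. Without replicate 1 of CPN-/- it was called lower in CPN-/- CRY1 (log2 -1.13, adjusted p = 0.0037, edgeR) and CPN-/- CRY2 (-0.80, adjusted p = 0.039), and without replicate 2 the values were -0.24 and 0.092 and were not called. The Aldoc share of the aldolase sum was 0.0270% and 0.0424%, 0.0377% and 0.0520%, and 0.0613% and 0.0473%. The ratio of Aldoc to Aldoa gave log2 values of 0.36 ± 0.32 in CPN-/- CRY1 and 0.64 ± 0.32 in CPN-/- CRY2 and was not called (adjusted p = 0.42 and 0.26, edgeR). Without CPN-/- replicate 2 the ratio in CPN-/- CRY2 was called higher (0.999, adjusted p = 0.044). Aldoart1, a copy of Aldoa known from testis, had 115 to 283 counts.

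Among the enolases, Eno1 was lower in both CRY lines and Eno2 in CPN-/- CRY2. Eno1 (chr4:150236708-150248879, plus strand) was 504 and 628 CPM per kb in CPN-/-, 294 and 304 in CPN-/- CRY1, then 282 and 302 in CPN-/- CRY2. The CPN-/- libraries were above all others, and the CRY lines overlapped. The level was 1.89-fold lower in CPN-/- CRY1 (log2 -0.92 ± 0.13, adjusted p = 0.0046, edgeR) and 1.94-fold lower in CPN-/- CRY2 (-0.95 ± 0.13, adjusted p = 0.0080). Leaving out a library of the CRY line in question ended each call (adjusted p = 0.069 and 0.066, and 0.12 and 0.094). The counts of Eno1 are uncertain, since 85.6% of its transcript has nearly identical sequence in Eno1b and the pseudogenes Gm4735 and Gm5855. Eno1b, with 2012 to 3977 counts, was called lower in both CRY lines (log2 -0.65 in each).

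Eno2 was 5.96 CPM per kb in each CPN-/- library, 6.31 and 5.50 in CPN-/- CRY1, with 4.15 and 3.94 in CPN-/- CRY2. The CPN-/- CRY2 libraries were below the other 4. Eno2 was 1.47-fold lower in CPN-/- CRY2 than in CPN-/- (log2 -0.56 ± 0.12, adjusted p = 0.041, edgeR), against -0.01 ± 0.12 in CPN-/- CRY1, and it was 1.46-fold higher in CPN-/- CRY1 than in CPN-/- CRY2 (0.55 ± 0.12, adjusted p = 0.024). With any 1 of the CRY libraries left out neither call held (adjusted p from 0.10 to 0.33), and with only the 4 libraries the CPN-/- CRY2 call did not (0.11). Eno3 was 10.9 and 14.99 CPM per kb in CPN-/-, 12.6 and 11.9 in CPN-/- CRY1, then 7.87 and 8.86 in CPN-/- CRY2. It resembled Eno2, with log2 values of -0.08 ± 0.17 in CPN-/- CRY1, -0.63 ± 0.17 in CPN-/- CRY2 and 0.55 ± 0.17 in the direct comparison, but none passed the test (adjusted p = 0.76, 0.087 and 0.073). The latter were both called by DESeq2 (adjusted p = 0.025 and 0.034). At the length of Eno3 the fitted length trend was -0.24 and -0.21 against CPN-/-.

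**Figure D4:**
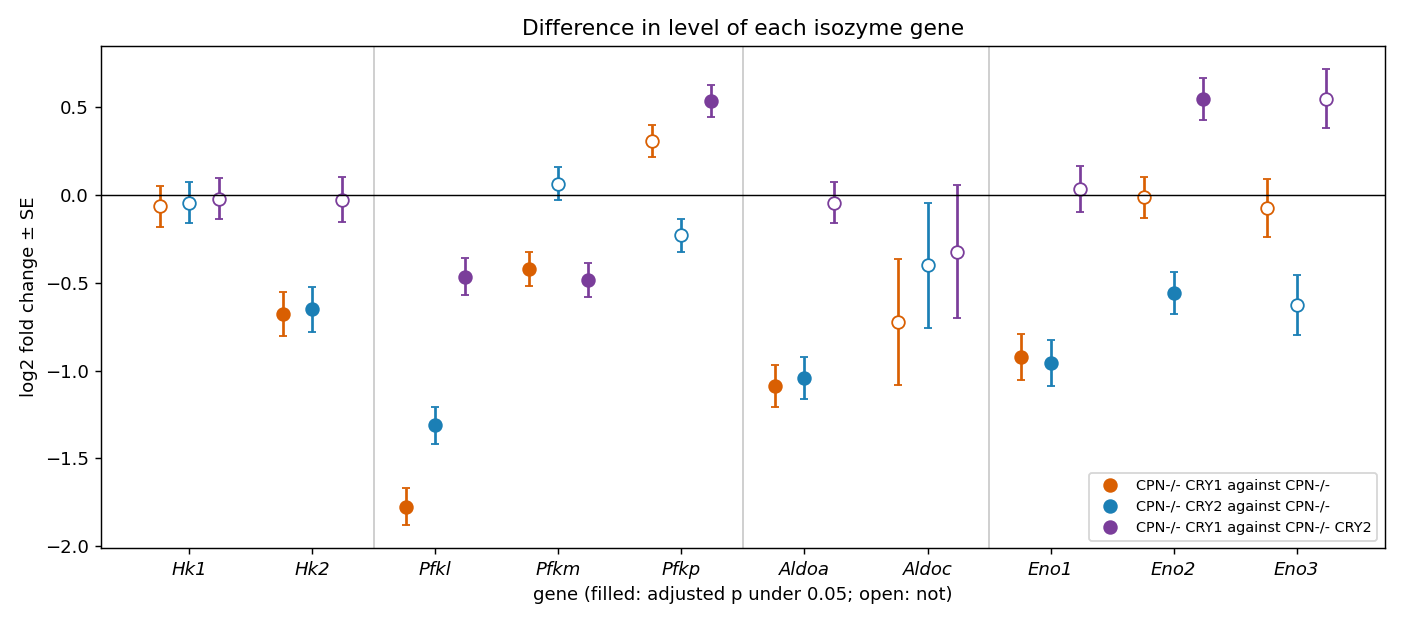
Log2 fold change in level of each isozyme gene (y axis, ± SE) by gene (x axis) for the 3 comparisons, filled where the adjusted p was under 0.05. Hk2, Pfkl, Aldoa and Eno1 are below 0 and filled in both comparisons with CPN-/-, while Eno2 is filled only for CPN-/- CRY2 against CPN-/- and for the direct comparison.

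Eno1 made up 96.8% of the enolase sum in each CPN-/- library, 94.0% and 94.6% in CPN-/- CRY1, and 95.9% in each CPN-/- CRY2 library. Eno2 made up 1.14% and 0.918%, 2.02% and 1.71%, and 1.41% and 1.25%, and Eno3 2.09% and 2.31%, 4.02% and 3.71%, and 2.67% and 2.82%. No share overlapped between lines for any of the 3 genes, with CPN-/- CRY2 between CPN-/- and CPN-/- CRY1. These shares too are tied to each other and are not separate results. In CPN-/- CRY1 against CPN-/-, the ratio of Eno1 to the rest was 1.82-fold lower (log2 -0.86 ± 0.10, adjusted p = 0.0025, edgeR), and the ratios of Eno2 and Eno3 were 1.83-fold and 1.79-fold higher (adjusted p = 0.010 and 0.0038). Without CPN-/- CRY1 replicate 1 none of the 3 was called (adjusted p = 0.054, 0.10 and 0.057). In CPN-/- CRY2 against CPN-/- the same ratios gave -0.35 ± 0.10, 0.37 ± 0.16 and 0.33 ± 0.12 and were not called (adjusted p = 0.11, 0.21 and 0.15). Without CPN-/- replicate 1 all 3 were called (adjusted p = 1.5e-04, 3.0e-04 and 0.039, edgeR), without replicate 2 those of Eno1 and Eno3 (6.5e-04 and 0.0056), and with the length trend removed again those of Eno1 and Eno3. Between the CRY lines, the Eno1 ratio was lower in CPN-/- CRY1 (-0.51 ± 0.10, adjusted p = 0.019) and the Eno3 ratio higher (0.51 ± 0.12, adjusted p = 0.027), while the Eno2 ratio gave 0.50 ± 0.16 (adjusted p = 0.080). The direct calls were lost without any 1 of the CRY libraries (0.12 to 0.23). Eno4 had 15 to 22 counts in a library and was not called.

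In all, 8 of the 10 ratios were called in CPN-/- CRY1 against CPN-/-, the exceptions being those of Aldoa and Aldoc, where 24.4% of the genes in the same table were called. For CPN-/- CRY2 against CPN-/-, 5 were called (both hexokinase and all 3 phosphofructokinase ratios), against 6.67%. In the direct comparison 5 were called (Pfkl, Pfkm, Pfkp, Eno1 and Eno3), against 16.3%. The other genes in that table were tested by level and not as ratios to a family. These percentages are therefore not a like-for-like background for the ratios, and how often ratios in other gene families would be called was not tested. The ratios of a family are not independent of each other, since each isozyme is part of the reference of the others. The hexokinase ratios are the same measurement with its sign turned, and both are counted here. With the whole family as the reference, which a leading isozyme largely makes up itself, the ratios of Hk1 and Eno1 were called in no comparison. The family totals, from the summed counts, were lower in both CRY lines for phosphofructokinase (2.04-fold and 1.79-fold), aldolase (2.12-fold and 2.06-fold) and enolase (1.85-fold and 1.92-fold), with adjusted p from 0.0012 to 0.0083 (edgeR), and none was called between the CRY lines, where 0 had an unadjusted p under 0.05. In the table with the totals, 24.3%, 6.64% and 16.3% of the genes were called in the 3 comparisons. Without either CPN-/- CRY2 library, 0 of the totals were called in CPN-/- CRY2 against CPN-/- (adjusted p from 0.063 to 0.12 for the 3 families, each with an unadjusted p under 0.05). Without either CPN-/- CRY1 library, the enolase total was not called in CPN-/- CRY1 against CPN-/- (adjusted p = 0.073 and 0.070, edgeR).

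The other steps of glycolysis were described from a list of 14 genes, 10 of which passed the filter. In CPN-/- CRY1, 6 of the 10 were called, all lower: Pgk1, which makes the earliest ATP of the pathway (3.08-fold), Tpi1, which interconverts the triose phosphates (2.42-fold), Gpi1, which makes fructose 6-phosphate (1.79-fold), Pkm, the pyruvate kinase (1.64-fold), Pgam1, the phosphoglycerate mutase (1.34-fold), and Adpgk, which phosphorylates glucose with ADP (1.26-fold). In CPN-/- CRY2, 5 were called, all lower: Pgk1 (2.74-fold), Tpi1 (2.08-fold), Gpi1 (1.93-fold), Pgam1 (1.64-fold) and Pkm (1.48-fold). DESeq2 called 7 in CPN-/- CRY1, with Gapdh and Bpgm but without Adpgk, and 6 in CPN-/- CRY2, with Gapdh. Between the CRY lines 0 of these 10 were called by edgeR and 0 by DESeq2, with 2 (Pgam1 and Bpgm) at an unadjusted p under 0.05. Of all tested genes, edgeR called 24.3%, 6.66% and 16.3% in the 3 comparisons, with 13.1%, 4.08% and 8.57% as lower. The calls of these other steps were not recomputed with a library left out. Other annotated genes share nearly identical sequence with 68.8% of the Pgk1 transcript, 65.5% of Pkm and 50.2% of Gpi1. For Pkm these include Gm49759, which shares 767 exon bases with Pkm on the same strand. Such sequence also covered 43.1% of the Pgam1 transcript and 19.3% of that of Tpi1. Gapdh had only 347 to 586 counts, with nearly identical sequence in 80 other annotated genes over 88% of its transcript, so its counts are uncertain.

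Pfkl had the widest range of line means among the members, 1.77 on the log2 scale. Among 11408 other genes that averaged 100 counts or more, those whose centred log2 CPM over the 6 libraries was closest to that of Pfkl were Ak4, an adenylate kinase of mitochondria (root mean square difference 0.064), Dgat2, which makes triglycerides (0.078), Ldha, the lactate dehydrogenase subunit A (0.085), Lif, a cytokine (0.088), and Clu, which encodes clusterin (0.11). Their log2 fold changes against CPN-/- ranged from -1.84 to -1.62 for CPN-/- CRY1 and from -1.37 to -1.15 for CPN-/- CRY2. Hif1a, a check gene that encodes a subunit of hypoxia-inducible factor, was not called in CPN-/- CRY1 (log2 -0.41) or CPN-/- CRY2 (0.11) against CPN-/-. In the direct comparison it was lower in CPN-/- CRY1 (-0.52, adjusted p = 0.046, edgeR). The part of hypoxia-inducible factor in the results was not tested.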

How the data were processed

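Counts per gene from 6 polyA-selected, stranded RNA libraries, 2 for each of 3 lines, were used as deposited. Per the labels, reads were aligned to mm10 by STAR, and featureCounts gave the deposited counts, which the authors left without scaling. The gene annotation, strand setting and treatment of multi-mapping reads are not given in the sources used here. Symbols were matched to 25275 of the 27179 gene identifiers.

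The members and lists were chosen with earlier results of these data known. Genes were kept by filterByExpr (minimum count 10, minimum total 15), and tested with edgeR 4.0.16 in R 4.3.3 (TMM, robust quasi-likelihood fit, cell line as the only term, all 6 libraries). SE is the size of the log2 value over the root of its F statistic. For ratios, the offset of a member was the log of the summed length-scaled counts of the rest of its family. For totals, the members were replaced by summed counts per family. The genes named were the 10 members, further isozymes and copies, the other glycolytic steps, check genes, and the 5 genes closest to the member with the widest range. Near-identical sequence was searched with BLAST+ 2.17.0 (95% identity, 150 bases). Depth was 25957409 to 36106949 counts, and edgeR sets the error from a spread moderated over all genes. With 2 libraries a line no exact permutation p can be under 0.333. Tests were checked on simulated data. The simulation left out the length-dependent difference between the CPN-/- libraries, so the check does not cover it. Alternatives were other size factors, filters and lengths, DESeq2 1.42.0 (Wald, and s-values with apeglm 1.24.0), a replicate term, removal of each library's length trend (loess, span 0.5), and fewer libraries. Some further isozymes are not reported here.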

Additional observations from a re-analysis of the deposited data

Results flagged for a closer look

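Several members differed between the CRY lines by the direct test, in which an effect of a CRY protein and a difference between colonies cannot be told apart. Of the values below, only the Pfkp ratio was also called without any 1 of the CRY libraries. In level, the log2 fold change of CPN-/- CRY1 against CPN-/- CRY2 was -0.46 for Pfkl, -0.49 for Pfkm, 0.54 for Pfkp and 0.55 for Eno2. As ratios to the rest of the family, it was -0.43 for Pfkl, -0.37 for Pfkm, 1.01 for Pfkp, -0.51 for Eno1 and 0.51 for Eno3. The value for Pfkm stands beside a chromosome 15 median of -0.43 in the same comparison. No library could be examined as an outlier in groups of 2.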

How the results depend on the processing

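Of the counts of calls recomputed with all libraries or with those of 1 comparison, 76 stayed within 1.5 times the reported count, 4 were lower and 1 higher. With only the 4 libraries of the comparison, 3 members and 2 ratios were called in CPN-/- CRY2 against CPN-/-, and 1 family total in the direct comparison of the CRY lines. In the direct comparison, 2 ratios were called with the whole family as the reference and 3 with exon-union lengths. The fits with the whole family and with exon-union lengths used all 6 libraries, so they had no fewer samples. What caused these changes was not tested.

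With 1 library left out in turn, the members called ranged from 2 to 8 for CPN-/- CRY1 and from 1 to 8 for CPN-/- CRY2 (both against CPN-/-) and from 0 to 5 in the direct comparison. In the same order the ratios ranged from 3 to 8, from 2 to 8 and from 1 to 6, and the family totals from 2 to 4, from 0 to 4 and from 0 to 1. A line left with 1 library was assumed to vary like the others.

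The replicate numbers did not pair the libraries (correlations of the within-line differences -0.08, 0.14 and -0.03). With a replicate block, 5, 5 and 4 members, 8, 5 and 5 ratios and 3, 3 and 0 totals were called.

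No value called in the report turned its sign. The log2 values not called in the report that did, with their ranges over 1 library left out, are these. For CPN-/- CRY1 against CPN-/-, Hk1 ranged from -0.19 to 0.084, Eno2 from -0.12 to 0.086, Eno3 from -0.29 to 0.18 and the hexokinase total from -0.26 to 0.013. For CPN-/- CRY2 against CPN-/-, Hk1 ranged from -0.17 to 0.10, Aldoc from -0.80 to 0.092 and the hexokinase total from -0.24 to 0.033. In the direct comparison, Hk1 ranged from -0.042 to 8.0e-05, Hk2 from -0.089 to 0.037, Eno1 from -0.012 to 0.079, the Hk1 ratio from -0.078 to 0.091 and the Hk2 ratio from -0.090 to 0.079. With the length trend removed, Eno2 was 0.072 and Eno3 0.17 in CPN-/- CRY1 against CPN-/-, and 0.070 and 0.18 with the replicate block added. The direct Hk1 ratio was -0.0027 and -0.0034 in those fits and -0.0026 with the further isozymes.

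The length used moved the shares most, and Hk2 in CPN-/- ranged from 3.26% (median coding transcript) to 18.8% (exon union).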
